A study of Rattus norvegicus with 6 samples.

Results

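The anti-Rtl1 miRNAs are the mature products of 5 hairpins, miR-127, miR-136, miR-431, miR-433 and miR-434, that are transcribed from the strand opposite the Rtl1 gene. They were chosen by name from the table of known miRNAs, with either arm or with no arm in the name, which gave 9 of the 753 listed miRNAs, and all 9 passed the filter on low counts that left 459 for testing. The lumbar spinal cord was sampled on day 14 after surgery from 3 rats with bone cancer pain (BCP) and 3 sham-operated rats, with 1 small RNA library per rat. BCP rats received living Walker 256 cells, a rat mammary carcinoma line, in the marrow cavity of the left tibia, and sham-operated rats received the same cells after heat killing, so both groups had the surgery and the cell material. The rats were female Sprague Dawley according to the study's methods, while the sample labels give the strain as Wistar. The tissue was the lumbar enlargement on the injected side with the meninges removed, as the labels have it, and the carcinoma cells were carried in the ascites of donor rats before injection.

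Rtl1 is a retrotransposon-derived gene of the Dlk1-Dio3 imprinted domain. It is expressed from the paternal chromosome, whereas the transcript that carries these hairpins comes from the maternal chromosome, together with the non-coding RNAs Meg3, Rian and Mirg. Because the miRNAs are read from the opposite strand of the Rtl1 coding sequence they pair with its mRNA along their whole length and can direct its cleavage, unlike most animal miRNAs, which pair with their targets mainly through the seed at bases 2 to 8. The miRNAs of this domain are known for high expression in brain and spinal cord. A read count does not tell the parental chromosomes apart, and the Rtl1 mRNA was not measured in these libraries.

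RefSeq places all 5 hairpins on the plus strand of chromosome 6 of the rat assembly GRCr8, inside the span of Rtl1, in the order miR-431, miR-433, miR-127, miR-434 and miR-136, with Dlk1 and Meg3 before Rtl1 and Dio3 after it. The counts were made on another assembly, Rnor_6.0, so no positions are given. A mature RNA sequence was listed for 7 of the 9 miRNAs and is shown because each seed decides which other RNAs the miRNA can pair with. The seed is in capitals and the sequences are from RefSeq, GRCr8. No sequence was listed for rno-miR-127-5p or rno-miR-136-5p. The prefix rno marks the rat and is left out below.
rno-miR-127-3p: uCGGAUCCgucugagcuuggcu
rno-miR-434-3p: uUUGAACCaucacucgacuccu
rno-miR-434-5p: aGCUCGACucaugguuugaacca
rno-miR-433-3p: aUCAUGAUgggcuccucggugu
rno-miR-433-5p: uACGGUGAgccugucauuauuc
rno-miR-136-3p: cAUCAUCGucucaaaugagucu
rno-miR-431: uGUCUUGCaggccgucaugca

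The 7 sequences had 7 distinct seeds, and 0 of these seeds occurred in another of the 693 mature rat miRNAs of the same table. Their length was 21 to 23 nucleotides and their GC content lay between 40.9% for miR-136-3p and 59.1% for miR-127-3p. miR-431, which the table lists without an arm, lies on the 5' side of its hairpin. The longest run shared by any pair of the 7 was 9 bases, between the arms of miR-434. It forms the 3' end of miR-434-5p and the 5' end of miR-434-3p, so it covers the seed of the latter. The shared run is in capitals here.
rno-miR-434-5p: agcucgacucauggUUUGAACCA
rno-miR-434-3p: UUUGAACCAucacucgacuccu

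The hairpins of miR-433 and miR-434 show how the arms sit in the precursor, with both arms in capitals. They are the hairpins for which both arms were listed, and below they stand far apart in the balance of their arms.
Mir433: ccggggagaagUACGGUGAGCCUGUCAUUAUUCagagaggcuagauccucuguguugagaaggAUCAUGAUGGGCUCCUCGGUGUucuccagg
Mir434: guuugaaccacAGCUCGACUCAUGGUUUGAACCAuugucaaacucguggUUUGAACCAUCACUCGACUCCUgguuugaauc

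RefSeq also lists a miRNA on the minus strand at the place of miR-434, which was looked up after its counts had been seen. Of the 23 bases of miR-3543, 22 are the reverse complement of miR-434-3p, marked here in capitals.
rno-miR-3543: cAGGAGUCGAGUGAUGGUUCAAA
It had 0 counts in all 6 libraries, which allows a level of up to 0.126 to 0.223 CPM depending on the library, while miR-434-3p had between 119028 and 220384 counts. The counts at this place were thus all given to the strand opposite Rtl1.

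The count totals ranged from 13464349 to 23770677 per library, and values are counts per 1000000 (CPM) after normalization by edgeR's TMM factors. Reads of miRNAs span the whole molecule, so no division by length was made, but ligation differs between sequences and a comparison of levels between miRNAs is uncertain to that extent. Neural miRNAs taken as markers of the tissue summed to between 135106 and 147310 CPM of total counts in all libraries, and 6 of the 6 were present. Most of this sum came from miR-9a-5p and miR-128-3p. Red blood cell markers were listed at 0 for 3 of the 3 in the table. The study describes perfusion only for rats other than those whose cord was snap-frozen for sequencing. Whether zeros of marker miRNAs come from the tissue or from the counting was not tested. Markers of leukocytes and microglia, 2 of 6 of which were listed at 0, summed to 5503 to 6112 CPM in BCP rats and 2321 to 2801 CPM in sham-operated rats, and 3 of them were called higher in BCP rats at the thresholds given below. Their part in the results below was not tested. In whole tissue, fewer cells of a type and less RNA per cell cannot be told apart.

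The libraries stood apart by the base composition of their miRNAs, in a way that crossed the groups. Among miRNAs outside the 9, the 32 with at most 35% GC lay below their mean over the libraries in BCP rat 1 and sham-operated rats 1 and 2, by a median of -0.27, -0.19 and -0.54 on the log2 scale. In BCP rats 2 and 3 and sham-operated rat 3 they lay above it, by 0.23, 0.50 and 0.26. The 103 miRNAs with more than 55% GC went the other way, from 0.064 to 0.18 in the first 3 libraries and from -0.13 to -0.092 in the others. Below, the first 3 are called the GC-rich and the others the AU-rich libraries. The GC-rich set holds 1 BCP rat and 2 sham-operated rats and the AU-rich set holds 2 BCP rats and 1 sham-operated rat. The low-GC minus the high-GC median averaged 0.20 in the BCP group and -0.22 in the sham-operated group (exact permutation, two-sided, p = 0.5, the smallest p possible with 3 rats in each group being 0.1). A mature sequence was available for 93% of the tested miRNAs and for 77.8% of the 9, which is under the 80% set for a check on the members' own GC content, so that check is void and was not made.

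The 9 miRNAs together made up 7.22% to 8.57% of all counts in a library, most of it from a single arm. miR-127-3p was the third most abundant of the 459 tested miRNAs and took 78.7% to 79.8% of the counts of the 9. Its level in the BCP group, rats 1 to 3 in order, was 62914, 57195 and 58174 CPM, and in the sham-operated group it was 64986, 69083 and 57849 CPM. All levels and ratios below keep that order of the rats. The groups overlapped, since sham-operated rat 3 lay within the range of the BCP rats. Its neighbours in the order of levels were miR-9a-5p above, with a mean of 66660 CPM, and let-7g-5p below, with 60993 CPM. let-7g-5p was the lower of the pair in 3 of 6 libraries, so the order of these neighbours did not hold beyond the spread.

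Both arms of miR-434 were abundant. miR-434-3p, ranked 24th, had 9348, 8767 and 8505 CPM in the BCP group against 9892, 9892 and 8191 CPM in the sham-operated group. miR-434-5p, ranked 39th, had 3748, 4154 and 3994 CPM in the BCP group against 4234, 4158 and 4640 CPM in the sham-operated group. For miR-434-3p the groups overlapped, with sham-operated rat 3 the lowest of the 6. For miR-434-5p every BCP rat was below every sham-operated rat, but with BCP rat 2 and sham-operated rat 2 nearly equal. Per 1000000 total counts, without the TMM factors, BCP rat 2 had 4189 CPM and lay above sham-operated rats 1 and 2, at 4107 and 4115 CPM, so the groups overlapped. With TMM it was the single member whose groups did not overlap, or 11.1% of the 9, against 18.5% of all tested miRNAs.

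miR-433-3p, ranked 49th, had 2607, 2205 and 2139 CPM in the BCP group against 2814, 3198 and 2299 CPM in the sham-operated group. Sham-operated rat 3 fell among the BCP rats. The other arm of that hairpin, miR-433-5p, was the least abundant of the 9, with 20.4, 27.0 and 26.8 CPM in the BCP rats and 22.4, 21.9 and 29.0 CPM in the sham-operated rats. The groups overlapped there too, with the lowest value in BCP rat 1 and the highest in sham-operated rat 3. Its lowest count was 311 reads, for which counting alone gives a coefficient of variation of 5.67%, the largest among the 9.

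miR-136-3p varied most. It had 98.8, 161.8 and 189.2 CPM in the BCP group against 101.7, 72.5 and 210.1 CPM in the sham-operated group, so both the lowest and the highest value were in the sham-operated group. Its coefficient of variation over the 6 libraries was 40.1%, against a median of 15.6% over all tested miRNAs. Its other arm, miR-136-5p, had 39.8, 53.1 and 56.5 CPM in the BCP group against 45.4, 41.6 and 66.4 CPM in the sham-operated group, with a coefficient of variation of 20.1%. The same 3 libraries were the highest for both arms.

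miR-431, which has been studied in the growth of sensory axons, had 61.5, 67.5 and 64.8 CPM in the BCP group against 62.7, 75.0 and 63.5 CPM in the sham-operated group. The minor arm miR-127-5p had 81.1, 66.7 and 70.0 CPM in the BCP group against 62.6, 73.3 and 77.8 CPM in the sham-operated group. Neither parted the groups. The coefficient of variation was 7.49% for miR-431 and 9.61% for miR-127-5p. For the abundant arms miR-434-5p, miR-127-3p and miR-434-3p it was 7.08%, 7.75% and 7.94%, but for miR-433-3p, also abundant, it was 16.1%.

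The order of mean levels was miR-127-3p, miR-434-3p, miR-434-5p, miR-433-3p, miR-136-3p, miR-127-5p, miR-431, miR-136-5p and miR-433-5p. The first 4 kept this order in all 6 libraries with no overlap of their ranges, and miR-433-3p lay at least 10.9 times above miR-136-3p in each library. From miR-136-3p to miR-136-5p the ranges of neighbours overlapped. miR-136-3p was above miR-127-5p in 5 of 6 libraries, miR-127-5p above miR-431 in 3 of 6 and miR-431 above miR-136-5p in 5 of 6. miR-433-5p was lowest in every library, with miR-136-5p 1.9 to 2.29 times above it.

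**Figure D1:**
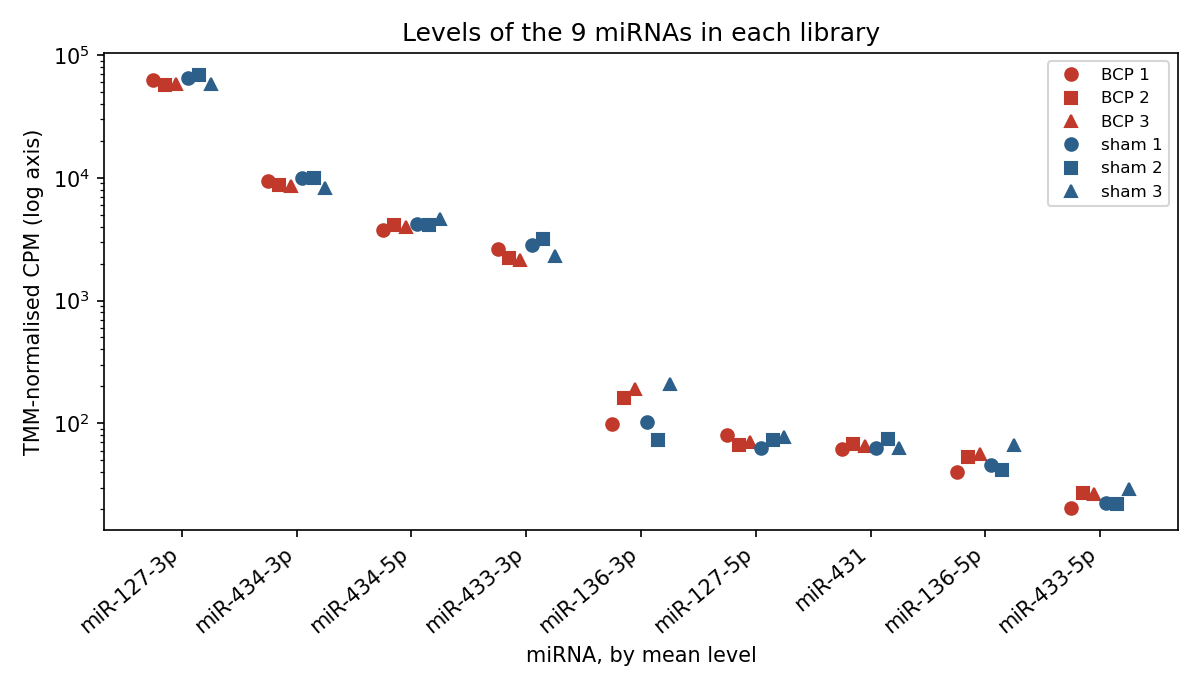
The level of each of the 9 miRNAs in each library is plotted as TMM-normalised CPM on a log axis, with the miRNAs in order of mean level, red for BCP and blue for sham-operated rats and a marker shape per rat number. The levels run from 69083 CPM for miR-127-3p down to 20.4 CPM for miR-433-5p, and miR-136-3p is spread most, from 72.5 to 210.1 CPM.

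In all 4 hairpins with both arms in the table the 3p arm had more counts than the 5p arm in every library, by very different amounts. These ratios compare counts inside a library and need no normalization. For miR-127 there were 776, 858 and 832 counts of the 3p arm for each count of the 5p arm in the BCP group, against 1038, 943 and 744 in the sham-operated group. The ratio for miR-433 was 127.5, 81.8 and 79.95 in the BCP group against 125.5, 146.0 and 79.4 in the sham-operated group. The libraries with a ratio of 81.8 or less were the 3 AU-rich ones, and no library lay between 81.8 and 125.5.

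The arms were closer in the other hairpins. For miR-136 the 3p arm had 2.48, 3.05 and 3.35 times the counts of the 5p arm in the BCP group, against 2.24, 1.74 and 3.16 times in the sham-operated group. For miR-434 the values were 2.49, 2.11 and 2.13 in the BCP group against 2.34, 2.38 and 1.77 in the sham-operated group. In miR-136 the 3 AU-rich libraries had the higher ratios, and in miR-434 they had the lower ones. The 5p arm held 28.0% ± 5.14 (SD, n = 6 libraries) of the counts of miR-136 and 31.4% ± 2.7 of those of miR-434, against 0.989% ± 0.266 for miR-433 and 0.117% ± 0.0141 for miR-127.

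The arm ratios of the groups overlapped in each of the 4 hairpins. The log2 ratio of the 5p to the 3p arm was higher in the BCP group by 0.13 for miR-127 and 0.27 for miR-433. For miR-136 and miR-434 it was lower there, with differences of -0.35 and -0.064. The exact permutation test, two-sided, gave p = 0.5, 0.7, 0.3 and 0.8 in the same order of hairpins (Benjamini-Hochberg adjusted p = 0.8 for all 4). Leaving out sham-operated rat 3 moved these differences to 0.27 for miR-127, 0.52 for miR-433, -0.57 for miR-136 and 0.075 for miR-434. The groups did not overlap for 0 of the 4, against 12.8% of the 149 hairpins with both arms tested. The AU-rich and GC-rich libraries did not overlap for 3 of the 4, miR-136, miR-433 and miR-434, against 38.3% of the 149. The range of the log2 ratio over the 6 libraries, 0.48 for miR-127, 0.94 for miR-136, 0.88 for miR-433 and 0.50 for miR-434, stood against a median of 0.67 over the 149 hairpins.

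**Figure D2:**
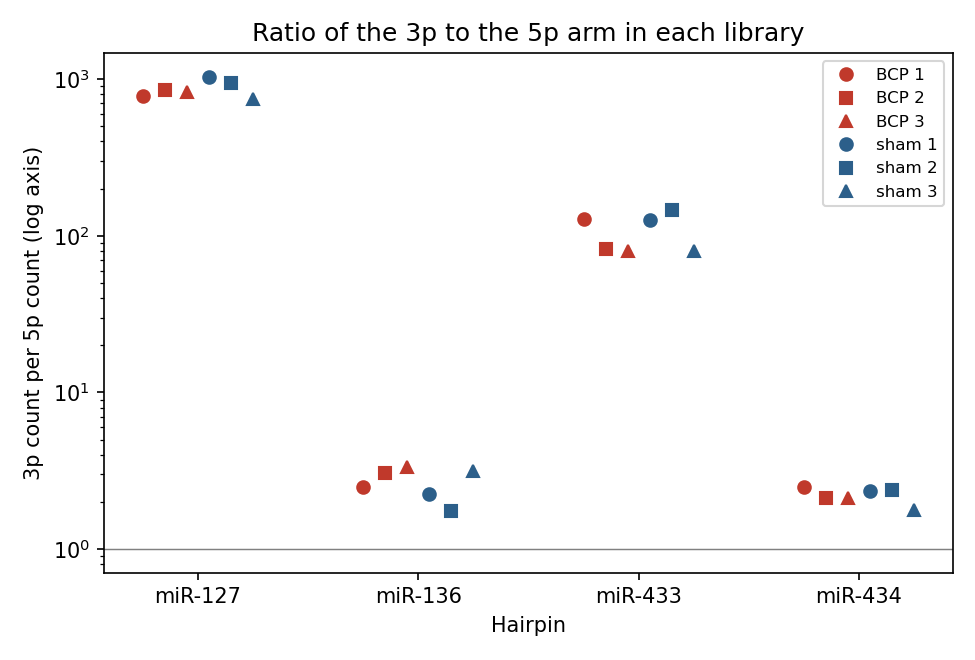
The number of 3p counts per 5p count is plotted on a log axis for the 4 hairpins with both arms, with red for BCP and blue for sham-operated rats, a marker shape per rat number and a grey line at equal arms. All points are above that line, from 1.74 for miR-136 in sham-operated rat 2 to 1038 for miR-127 in sham-operated rat 1, and the groups overlap in each hairpin.

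Whether the 9 miRNAs moved together across the libraries was examined next. They did not move as a block. miR-127-3p, miR-434-3p and miR-433-3p were each lower in every AU-rich library than in every GC-rich library. On the log2 scale the difference of the means was -0.18 for miR-127-3p, -0.19 for miR-434-3p and -0.37 for miR-433-3p. miR-136-3p, miR-136-5p and miR-433-5p were each higher in every AU-rich library, by 1.04, 0.46 and 0.35. For miR-434-5p, miR-127-5p and miR-431 the same sets overlapped, with differences of 0.074, -0.012 and -0.019. Within each group, though, miR-434-5p was higher in the AU-rich libraries, with 4154 and 3994 against 3748 CPM in BCP rats and 4640 against 4234 and 4158 CPM in sham-operated rats. The arms of miR-433 therefore fell in opposite directions between the library sets, and those of miR-136 in the same direction by unequal amounts. Of all tested miRNAs 46.6% parted these sets in either direction, and of the 9 it was 66.7%. The part of base composition in these differences was not tested.

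Because the libraries lie in 2 sets of 3 for 6 of these members, a correlation over the 6 libraries mostly restates the sets, and none is given between members. Among the 36 pairs of the 9, the ratio within a library varied to widely different degrees over the 6. miR-127-3p had 6.79 ± 0.218 (SD, n = 6 libraries) times the level of miR-434-3p, with a range from 6.52 to 7.06. The standard deviation of that log2 ratio was 0.046, the smallest of the 36 pairs. Among the 4 members with a mean of at least 1000 CPM the 6 pairs had a median of 0.15 and a range from 0.046 to 0.26, against a median of 0.21 over pairs of all 74 such miRNAs. miR-136-5p had 2.04 ± 0.143 times the level of miR-433-5p, with a standard deviation of 0.099 on the log2 scale. The largest was 0.82, between miR-136-3p and miR-433-3p, and the median of the 36 pairs was 0.26, against 0.33 over all pairs of tested miRNAs.

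**Figure D3:**
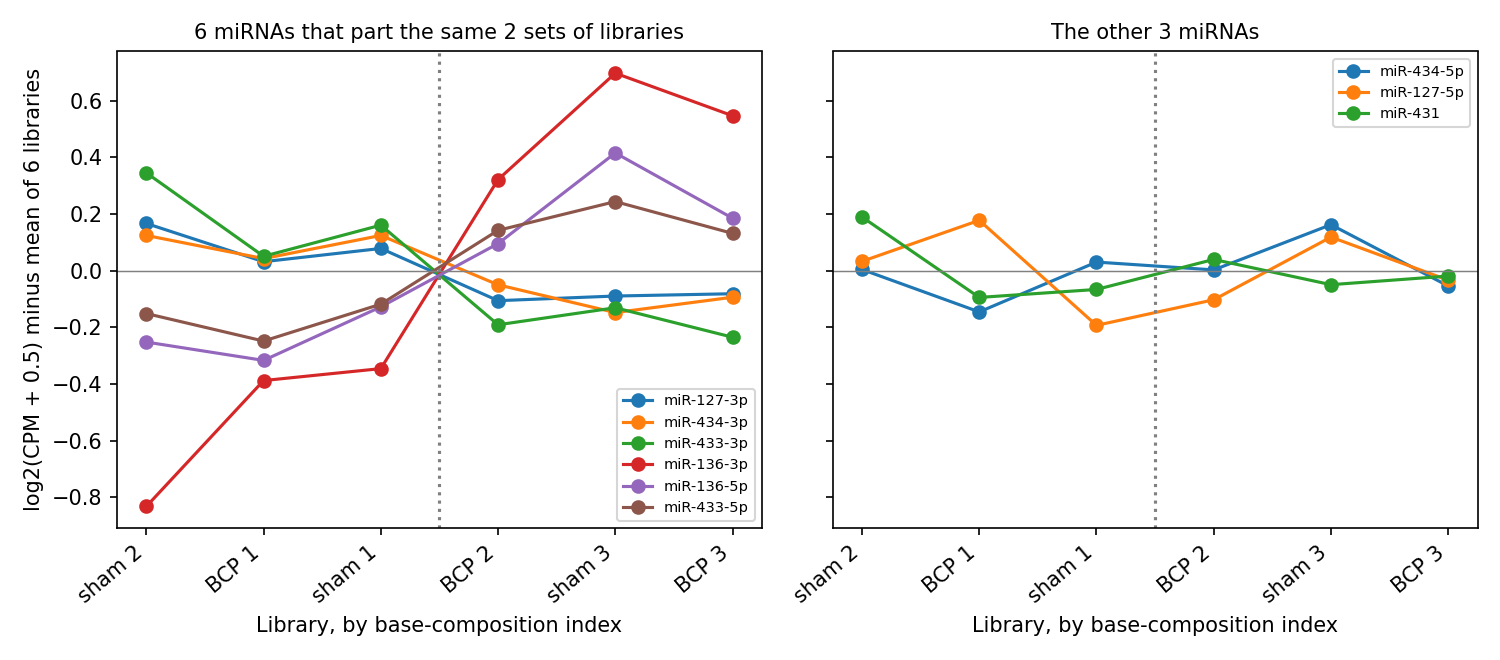
The log2(CPM + 0.5) of each miRNA minus its mean over the 6 libraries is plotted for each library, ordered by the difference between the median deviations of the low-GC and high-GC miRNAs outside the 9, with a dotted line between the GC-rich libraries on the left and the AU-rich libraries on the right. In the left panel miR-136-3p, miR-136-5p and miR-433-5p lie above 0 on the right and miR-127-3p, miR-434-3p and miR-433-3p below it, while the other 3 miRNAs, in the right panel, overlap between the library sets.

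The miRNAs outside the 9 whose pattern was most like the mean of the members' centred log2 levels were miR-300-3p, miR-3068-5p, miR-34c-5p, miR-488-3p and miR-376c-3p, with Pearson's r of 0.97, 0.97, 0.96, 0.95 and 0.94 over 6 libraries, given as a description. The mean itself was lower in each GC-rich than in each AU-rich library, so these values share the library sets. miR-300-3p and miR-376c-3p belong to the same imprinted domain, as do 70 of the tested miRNAs outside the 9, with 459 tested in all. The mean level of miR-376c-3p was only 3.44 CPM. This mean was highest in sham-operated rat 3, at 0.14, and lowest in BCP rat 1, at -0.099, and since the members fall in opposing sets it stands for none of them singly.

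The main comparison asked whether the anti-Rtl1 miRNAs differed in the cord of BCP rats. With the study's thresholds, an adjusted p below 0.05 together with a log2 fold change beyond 0.8 either way, 0 of the 9 were called by the quasi-likelihood test of edgeR, against 16 of 459 tested miRNAs, or 3.49%. All 16 were higher in BCP rats. The study itself, which does not name its edgeR test, reported more miRNAs at these thresholds, in both directions. At an unadjusted p below 0.05 there were also 0 of the 9, against 13.1% of all tested. DESeq2 and limma-voom likewise called 0 of the 9. Of the members 3 had a fold change above 0 and 6 below, with a median of -0.054, against -0.0034 for all tested miRNAs. The summed level of the 9 was 74945 ± 3452 CPM for BCP and 80754 ± 6716 CPM for sham (SD over 3 rats each).

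miR-127-3p had 59428 ± 3059 CPM for BCP and 63973 ± 5685 CPM for sham (SD over 3 rats each), which gave a log2 difference of -0.11 (SE 0.094, 95% interval from -0.32 to 0.11, adjusted p = 0.685, edgeR quasi-likelihood with Benjamini-Hochberg adjustment). For miR-434-5p the log2 difference was -0.13 (interval from -0.34 to 0.078, edgeR adjusted p = 0.608), and for miR-434-3p it was -0.072 (interval from -0.31 to 0.17, edgeR adjusted p = 0.812). Without sham-operated rat 3 the log2 difference was -0.21 for miR-127-3p and -0.19 for miR-434-3p. The largest difference downward was that of miR-433-3p, with 2317 ± 253 CPM against 2770 ± 451 CPM (SD over 3 rats each) and a log2 difference of -0.26 (SE 0.142, interval from -0.58 to 0.069, edgeR adjusted p = 0.52). It was -0.41 without sham-operated rat 3, with an edgeR adjusted p of 0.0721, and -0.15 without sham-operated rat 2.

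miR-136-3p had the widest interval of the 9. It had 149.9 ± 46.4 CPM for BCP and 128.1 ± 72.5 CPM for sham (SD over 3 rats each), with a log2 difference of 0.23 (SE 0.393, interval from -0.68 to 1.13, edgeR adjusted p = 0.837). Its interval alone among the 9 reached past the threshold of 0.8, so this spread between rats leaves room for a difference of that size. Without sham-operated rat 3 the value rose to 0.75, and without sham-operated rat 2 it was -0.067. For miR-136-5p the log2 fold change was -0.04 (interval from -0.53 to 0.45), for miR-433-5p 0.014 (interval from -0.38 to 0.41), for miR-127-5p 0.028 (interval from -0.29 to 0.34) and for miR-431 -0.054 (interval from -0.34 to 0.23). The edgeR adjusted p of these 4 lay between 0.916 and 0.99.

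**Figure D4:**
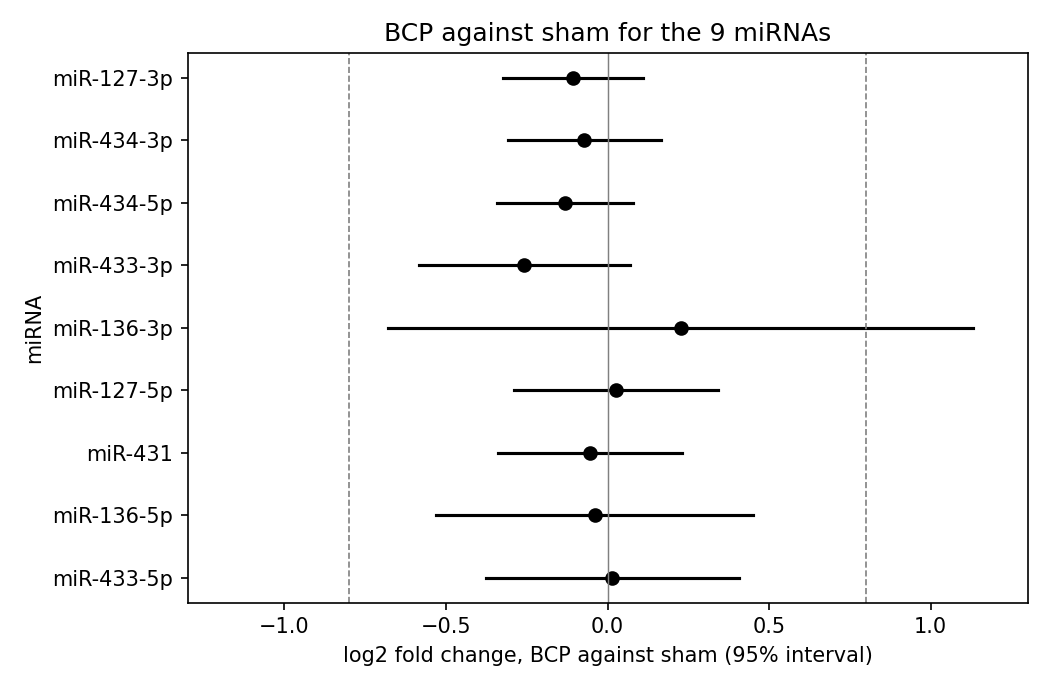
The log2 fold change of each of the 9 miRNAs in BCP against sham-operated rats is plotted with its 95% interval from edgeR's quasi-likelihood fit, with a grey line at 0 and dashed lines at the threshold of 0.8 on either side. All 9 intervals include 0, and that of miR-136-3p, from -0.68 to 1.13, is the only one to cross a dashed line.

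Within the GC-rich libraries, the BCP rat minus the mean of the 2 sham-operated rats was -0.20 for miR-433-3p, -0.16 for miR-434-5p, -0.13 for miR-136-5p and -0.11 for miR-433-5p on the log2 scale. Within the AU-rich libraries, the mean of the 2 BCP rats minus the sham-operated rat was -0.082, -0.19, -0.28 and -0.11 for the same miRNAs in the same order. The difference for miR-127-3p was -0.091 in the GC-rich and -0.0042 in the AU-rich libraries, where BCP rat 3 lay above sham-operated rat 3. The difference was thus below 0 in both sets for 5 of the 9, or 55.6%, against 35.7% of all tested miRNAs. The sign of miR-136-3p differed between the sets, with 0.20 in the GC-rich and -0.26 in the AU-rich libraries. So did that of the other 3, with -0.082 and 0.076 for miR-434-3p, 0.26 and -0.19 for miR-127-5p and -0.16 and 0.06 for miR-431, the GC-rich value first. These differences within the sets were not tested.

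A fit with the base composition of the library as a term, chosen after seeing the data, leaves 3 residual degrees of freedom. In it miR-136-5p had a log2 difference of -0.28 (SE 0.0976, edgeR adjusted p = 0.0289) and miR-434-5p one of -0.19 (SE 0.0659, edgeR adjusted p = 0.029). Thus 2 of the 9 had an adjusted p below 0.05 there, against 17.2% of all tested miRNAs, and neither reached the fold change threshold. With the same term limma-voom also had 2 of the 9 below 0.05, against 16.8% of all tested miRNAs. The p-values of edgeR with this term rest on 1377 degrees of freedom, since edgeR took 1 spread for all miRNAs. In its fit of the groups alone they rest on 7.97. With the 3 residual degrees of freedom alone, the same estimates and SEs from edgeR give unadjusted p = 0.0645 for miR-136-5p and 0.0653 for miR-434-5p, and an adjusted p of 0.422 for both. Neither passed on that basis, where 0.436% of all tested miRNAs did. Those SEs still hold the 1 spread taken for all miRNAs, so this was not a test on each miRNA's own spread. The value for miR-136-3p turned to -0.20 in the fit with base composition (edgeR adjusted p = 0.0759), that for miR-433-3p shrank to -0.09 and that for miR-127-3p to -0.024. The term was computed from miRNAs of the same libraries.

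The other miRNAs of the Dlk1-Dio3 domain were taken from a list of 49 names, of which 46 matched 85 listed miRNAs and 70 were tested. Of the 70, 0 were called at the study's thresholds in edgeR's quasi-likelihood test, against 3.49% of all tested miRNAs, and 0 were called by DESeq2 or limma-voom. An unadjusted p below 0.05 was found for 3, or 4.29%, all lower in the BCP group, against 13.1% of all tested, where 49 were higher and 11 lower. With base composition as a term, 8 of the 70 had an edgeR adjusted p below 0.05, all lower in the BCP group. Among all tested this held for 17.2%, 53 higher and 26 lower, with the limit on degrees of freedom given above. The median log2 fold change of the 70 in the fit of the groups alone was -0.093, with 24 above 0 and 46 below and values from -0.49 to 0.48. Among all tested 225 were above and 234 below. The 3 most abundant were miR-543-3p, miR-379-5p and miR-323-3p, at means of 5222, 3097 and 2068 CPM over the 6 libraries, each below miR-434-3p. The log2 difference was -0.32 for miR-543-3p (SE 0.124, edgeR adjusted p = 0.286), -0.044 for miR-379-5p (edgeR adjusted p = 0.918) and -0.13 for miR-323-3p (edgeR adjusted p = 0.685). All listed miRNAs of the domain outside the 9 made up 2.69%, 2.76% and 2.76% of the counts in the BCP group against 2.97%, 2.96% and 3.08% in the sham-operated group, less than the 7.22% to 8.57% of the 9. These shares did not overlap between the groups, while of the single miRNAs 8 of the 70, or 11.4%, did not, against 18.5% of all tested.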

How the data were processed

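Read trimming and quality filtering by the authors used the FASTX Toolkit, and clean reads were mapped to Rnor_6.0 and matched to miRBase. The study also names a length of 21 to 22 nucleotides as a criterion for known miRNAs, while the listed miR-434-5p has 23. Whether a limit on length lowered the counts of single arms, and so moved levels or arm ratios, was not tested. The labels name Bowtie2 2.2.3 as a mapper. The deposited values are raw read counts per known mature miRNA, without normalization, and 0 columns lacked a sample. How reads matching several miRNAs were assigned is not given in the sources used here.

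Tests were run in edgeR 4.0.16 under R 4.3.3 (filterByExpr with a minimum count of 10, TMM, quasi-likelihood test without block, Benjamini-Hochberg adjustment over all 459 tested miRNAs), with a pseudocount of 0.5 on log2 scales, log2 arm ratios included. Alternatives were DESeq2 1.42.0, limma-voom (limma 3.58.1), the likelihood ratio test, other normalizations and filters, the replicate number as a block, and each rat left out. The fit was tested on simulated data that held no library sets such as those seen here, so that test does not cover them. Members, lists and tests were chosen with earlier results of these data known. Named miRNAs are the 9, their neighbours in level, the 3 most abundant others of the domain and the 5 most alike in pattern, besides examples of marker miRNAs; miR-3543, miR-377-3p, the library sets and the fit with base composition came after values were seen. Chi-square per degree of freedom between libraries of a group was 59.7 to 638, above what copies of 1 library would give. Limits for a count of 0 take 3 counts and cover counting error only.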

Additional observations from a re-analysis of the deposited data

How the results depend on the processing

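Correlations between pairs of the 9 were computed but are not given, since the libraries lie in 2 sets. The count of 0 called among the 9 miRNAs was the same under every alternative run, as was that among the other Dlk1-Dio3 miRNAs except with base composition as a term, where edgeR called 1, miR-377-3p (log2 fold change -0.83). Among all known miRNAs, 16 were called, 25 with the likelihood ratio test, and from 8 to 20 with each rat left out (8 without BCP rat 2, 10 without BCP rat 3 and 9 without sham-operated rat 1). For the fold changes of the 9, the 126 values under the alternatives set at the start had 0 adjusted p below 0.05, the smallest being 0.0721, and 13 changed sign. The single one for miR-136-3p came from leaving out sham-operated rat 2. miR-433-5p had -0.013 with RLE, -0.0058 with total counts, -0.013 with DESeq2 and -0.16 with base composition as a term, where miR-136-3p had -0.20 and miR-434-3p 0.0199. With that term in limma-voom, also added after seeing the data, they were -0.16, -0.21 and 0.0197, and 1 other Dlk1-Dio3 miRNA was called. In that fit 2 of the 9 had a limma-voom adjusted p below 0.05, miR-136-5p (0.0412) and miR-434-5p (0.0377), against 16.8% of all tested. The estimates and SEs from edgeR, taken on 3 residual degrees of freedom, gave an adjusted p of 0.422 for both. With a single rat left out the range was -0.087 to 0.087 for miR-127-5p, -0.18 to 0.16 for miR-136-5p, -0.067 to 0.75 for miR-136-3p, -0.13 to 0.029 for miR-431, -0.071 to 0.12 for miR-433-5p, -0.21 to -0.052 for miR-127-3p and -0.19 to -0.031 for miR-434-3p. For the log2 arm ratios it was -0.14 to 0.075 for miR-434, 0.028 to 0.27 for miR-127, 0.084 to 0.52 for miR-433 and -0.57 to -0.14 for miR-136. The cause of these changes was not tested. With the replicate block 18 miRNAs were called, 15 of them among the 16, and 0 of the 9 had an adjusted p below 0.05. For miR-136-3p the block gave 0.31 and for miR-433-3p -0.25. The labels link rats of the 2 groups by replicate number alone. Same-numbered rats had correlations of their deviations of 0.051, -0.44 and 0.67, and 2 of 6 libraries correlated best with their own number. Both rats numbered 3 were AU-rich and those numbered 2 lay in opposite library sets. These correlations therefore cannot show whether a number stands for a shared step.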
